A study of Brassica oleracea with 4 samples.

Results

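Plant protease inhibitors are proteins, often small, that block the enzymes which cut other proteins. Of the 135 broccoli (Brassica oleracea) genes in the authors' table, 6 carry an annotation with the words trypsin or protease inhibitor, and these 6 are described here. They were selected on those annotation words, but the table that holds them had itself been selected on the difference between the sprays, so the direction and size of each difference are a description and carry no test. By annotation, 4 of the 6 belong to the Kunitz family, 1 to the potato inhibitor I family, and 1 is trypsin inhibitor protein 1 (TI1). The word inhibitor also occurs in 3 other annotations of the table. Bo3g037670 and Bo9g014930, of the invertase and pectin methylesterase inhibitor superfamily, and Bo9g120390, a lipid transfer protein with the annotation bifunctional inhibitor, do not meet these words and were left out.

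RNA was taken from hypocotyls, the embryonic stems, of broccoli microgreens at an age of 10 days. One group had a daily spray of calcium chloride at 10 mmol/L, and the other a daily spray of water. Both groups grew at 25 °C, first in the dark for 4 days and then with 12 h of light a day, at 42 µmol per second and square metre. The labels list 2 libraries for each spray, without stating whether different trays were used for them, and they name no cultivar. The values are RPKM, which is the read count of a gene divided by its length and by the total of mapped reads, so that levels can be compared between genes. There is 1 RPKM value for each spray and none for a single library. No difference below can therefore be set against the spread between libraries. The depth of each library is unknown, since neither read totals nor gene lengths are given.

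Kunitz inhibitors, whose best-known member is a soybean trypsin inhibitor, sit in the active site of serine proteases, and some members block cysteine proteases instead. Potato inhibitor I proteins act on serine proteases of the chymotrypsin and subtilisin type. Many plants make both kinds in seeds and storage organs and raise them after wounding or insect feeding, often through jasmonate, where they hinder digestion in the herbivore. In Arabidopsis, Kunitz proteins also act on the plant's own proteases during seedling growth, ageing and cell death. None of the 6 broccoli identifiers was found in the RefSeq gene table at hand, so their sequences and genomic positions were not analysed here, and each gene is named through the Arabidopsis gene that the authors matched to it.

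All 6 inhibitor genes were lower after the calcium spray. The 4 Kunitz genes differed by 4.71-fold to 30.6-fold, and the genes of the other classes by 2.09-fold and 2.82-fold. Every gene that was lower in the table was so by at least 2-fold, and such genes made up 64 of the 135, or 47.4%. The table was built on this difference, so nothing about the inhibitors is read from their count of 6 of 6. At least a 3-fold lower value was found for 4 of the 6, all of them Kunitz genes, against 25.2% of the whole table and 34 of the 64 lower genes (53.1%). Since the table was built on these values, nothing is read from this count either. The median log2 ratio of calcium over water was -2.42 for the 6 genes, -1.62 for the 58 other genes that were lower, and 1.04 for all 135 genes.

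**Figure D1:**
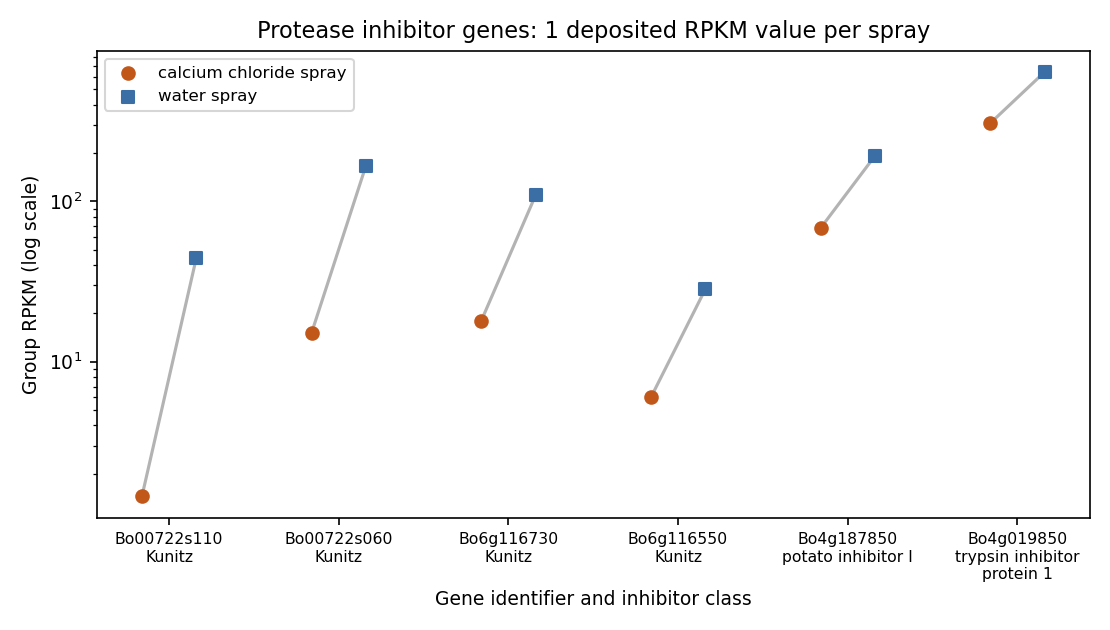
Group RPKM (log axis) of each of the 6 inhibitor genes after the calcium chloride spray (circles) and the water spray (squares), 1 deposited value per spray with no replicate error. Bo00722s110 shows the steepest line, with 1.45 RPKM under calcium and 44.2 RPKM under water, and TI1 (Bo4g019850) the flattest, with 308 RPKM under calcium and 643 RPKM under water.

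The largest fold differences among the 6 genes were those of Bo00722s110 and Bo00722s060, which both match the Arabidopsis Kunitz gene AT1G72290. The protein of that gene is known in Arabidopsis as a water-soluble chlorophyll-binding protein, which inhibits the cysteine protease RD21 and is made in the apical hook of dark-grown seedlings. Bo00722s110 was at 1.45 RPKM after calcium and at 44.2 RPKM after water, 30.6-fold lower. Its level after calcium was 3.27% of its level with water, and only 2 genes of the table had a lower ratio. Bo00722s060 was at 15.2 RPKM after calcium and at 167 RPKM after water, 11.0-fold lower. It was the more abundant of the pair under both sprays, by 10.5 times after calcium and by 3.78 times after water. Within the pair, Bo00722s110 thus gave 8.71% of the summed RPKM after calcium and 20.9% after water. The 2 genes together summed to 16.6 RPKM after calcium and 211 RPKM after water, 12.7-fold lower. Their sequences were not compared here, and the sources used here do not state how the authors assigned reads that fit more than 1 gene, so whether reads were shared between these genes was not tested.

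The other Kunitz genes, Bo6g116730 and Bo6g116550, each match an Arabidopsis gene of their own. Bo6g116730, matched to AT1G73325, was at 18.0 RPKM after calcium and at 109 RPKM after water, 6.07-fold lower. Bo6g116550 is annotated as KTI1, kunitz trypsin inhibitor 1, and its Arabidopsis counterpart AT1G73260 is known to restrain cell death during pathogen attack. It was at 6.00 RPKM after calcium and at 28.3 RPKM after water, 4.71-fold lower. KTI1 was the least abundant of the 6 genes with water, and Bo00722s110 took that place with calcium. The authors' deposited table gives KTI1 an adjusted p of 0.0351, the weakest of the 6 and close to the highest value in that table, 0.0423.

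Outside the Kunitz family the levels were higher and the ratios smaller. Bo4g187850 is annotated as a serine protease inhibitor of the potato inhibitor I type. It was at 68.3 RPKM after calcium and at 192 RPKM after water, 2.82-fold lower. TI1 (Bo4g019850) matches AT2G43510, which in Arabidopsis belongs to a family of small cysteine-rich trypsin inhibitors found in the mustard family and related to defensins in their fold. It was the most abundant of the 6 genes under both sprays, at 308 RPKM after calcium and at 643 RPKM after water, 2.09-fold lower. With water it ranked 8 among the 135 genes by RPKM, and with calcium it ranked 17. Its ratio lies just inside the 2-fold limit that all genes of the table meet.

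Summed over all 6 genes, inhibitor transcripts were at 417 RPKM after calcium and at 1184 RPKM after water, 2.84-fold lower. TI1 alone gave 73.9% of the sum after calcium and 54.3% after water, and without TI1 the sum was 4.97-fold lower. The 4 Kunitz genes summed to 40.6 RPKM after calcium and to 349 RPKM after water, 8.59-fold lower. The other classes summed to 376 RPKM after calcium and to 835 RPKM after water, 2.22-fold lower. The Kunitz share of all inhibitor RPKM was accordingly 9.74% after calcium and 29.5% after water, while the share of the potato inhibitor I gene was 16.4% after calcium and 16.2% after water. In absolute terms TI1 differed most, by -335 RPKM, or 43.6% of the difference of the whole sum. The 4 Kunitz genes made up 40.2% of it.

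**Figure D2:**
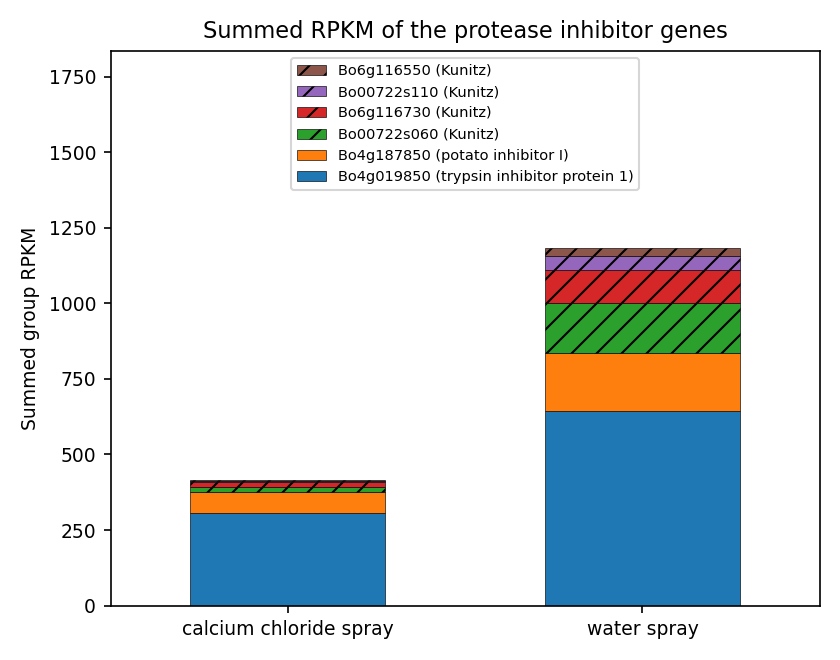
Stacked group RPKM of the 6 inhibitor genes after the calcium chloride spray (left bar) and the water spray (right bar), with Kunitz genes hatched. The bars reach 417 RPKM with calcium and 1184 RPKM with water, and the hatched part is 9.74% of the bar with calcium and 29.5% of the bar with water.

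Among the 6 genes, the Kunitz genes and the other classes did not overlap in their ratios. The least changed Kunitz gene, KTI1, had a log2 ratio of -2.24, and the most changed gene of the other classes, Bo4g187850, one of -1.49. This is a description of 4 and 2 genes, and no test of the difference between the classes could be made. The gap holds only for the genes that met the annotation words. The knottin gene Bo4g020910, described below, was listed with protease inhibitors outside those words. Its log2 ratio was -2.25, lower than that of KTI1. The genes kept much of their order of abundance between the sprays. Of the 15 pairs that the 6 genes form, 13 had the same order of RPKM with calcium as with water, and the exceptions were Bo00722s060 with Bo6g116730 and Bo00722s110 with KTI1. The distance between the highest and the lowest gene was 213-fold with calcium and 22.7-fold with water. In every gene of the table the larger of the group values was at least 25.75 RPKM. For the inhibitor genes that is the water value, while their calcium values had no such floor. Nothing is therefore read from these ranges. In 11 of the 15 pairs the gene that was more abundant with water had the smaller fold difference. KTI1 ran against that order, as the least abundant gene with water but only the fourth in fold difference. The fold difference contains the water value, and the table was built on the difference, so nothing is read from this count of pairs.

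**Figure D3:**
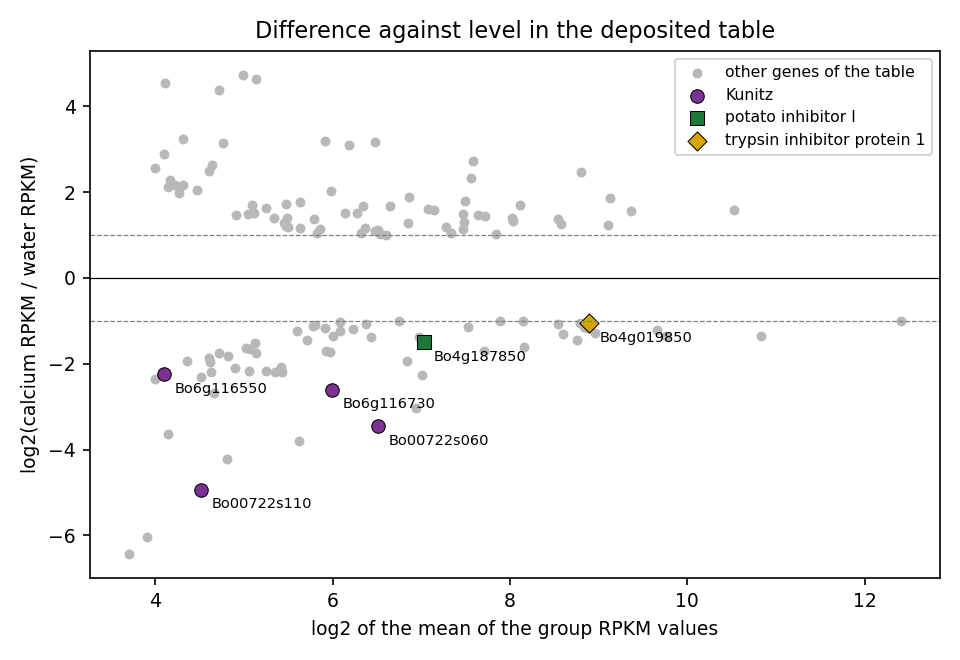
Log2 ratio of calcium over water RPKM against the log2 of the mean RPKM for the 135 genes of the table, with the inhibitor genes marked by class and dashed lines at a 2-fold difference. All 6 marked genes lie below the lower dashed line, TI1 nearest to it at -1.06, and no gene lies between the dashed lines because the table holds none with under a 2-fold difference.

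The authors divided the genes of the table into clusters. In the authors' deposited table, Bo00722s110 and Bo00722s060 stand in cluster 2, which holds 8 genes or 5.93% of the table. All 8 are among its 64 lower genes. The other 4 inhibitor genes stand in cluster 3, whose share of the table is not given here. The table was built on the difference between the sprays, so nothing is read from these cluster counts. In the authors' deposited table, all of the 6 genes but KTI1, thus 5, had an adjusted p under 0.001. Genes that were lower with such an adjusted p made up 32.6% of the authors' deposited table, and were 44 of its 64 lower genes. Since the table was built on these values, nothing is read from this count. Of the 135 genes in the authors' deposited table, 41 had an adjusted p listed as 0, among them 19 of the 64 lower genes. The adjusted p in the authors' deposited table was listed as 0 for TI1 and Bo00722s060, and was 1.18e-12 for Bo6g116730, 3.86e-11 for Bo4g187850 and 1.87e-07 for Bo00722s110. It did not follow the fold difference, since the gene with the smallest ratio difference, TI1, was among those listed at 0, while Bo00722s110 had the weakest value after KTI1. Among the 6 genes it followed instead the difference of the group RPKM values divided by the square root of their sum. This quantity was -11.3 for Bo00722s060, -10.9 for TI1, -8.09 for Bo6g116730, -7.69 for Bo4g187850, -6.33 for Bo00722s110 and -3.81 for KTI1. It puts all 6 genes in the order of their adjusted p, using only the group values printed above. TI1 and Bo00722s060 are tied at 0, so their own order is not defined, and the order is given for these 6 genes only.

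The ratio of Bo00722s110 rests on a value near 0 after calcium. With 5 RPKM added to both values it was 7.63-fold lower, while Bo00722s060 was 8.54-fold lower, so that the order of the pair turned round. The log2 ratio of Bo00722s110 was -4.93 as deposited, -4.21 with 1 RPKM added and -2.93 with 5 RPKM added. That of Bo00722s060 was -3.46 as deposited and -3.09 with 5 RPKM added. Among the other Kunitz genes, the log2 ratio of Bo6g116730 was -2.31 and that of KTI1 -1.60 with 5 RPKM added. Bo4g187850 was at -1.43 and TI1 at -1.05 under this addition, so the Kunitz genes still lay below both.

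**Figure D4:**
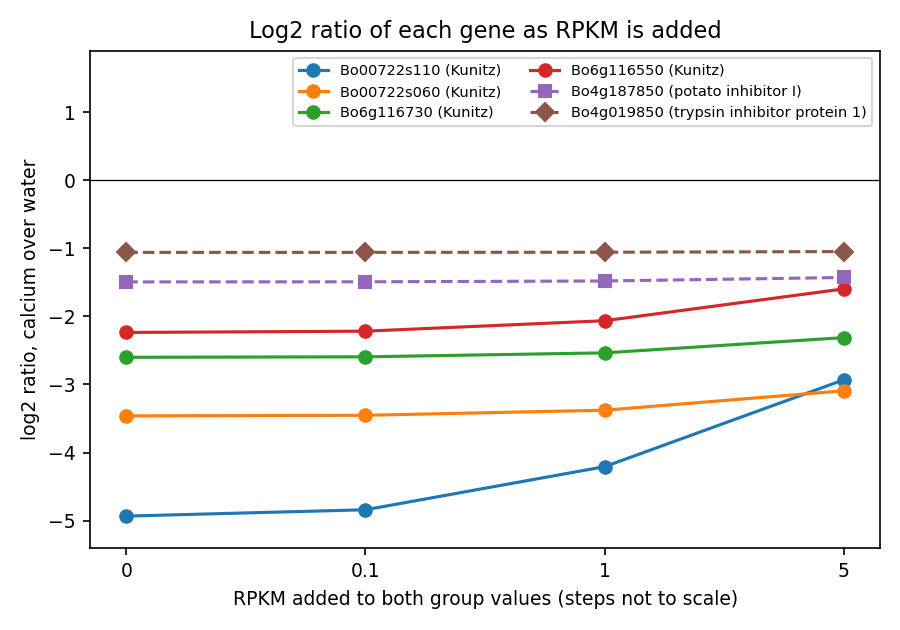
Log2 ratio of calcium over water for each inhibitor gene with 0, 0.1, 1 or 5 RPKM added to both group values, Kunitz genes as solid lines and the other classes as dashed lines. The line of Bo00722s110 starts at -4.93 and ends at -2.93, above that of Bo00722s060, while the lines of TI1 and Bo4g187850 are nearly flat.

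Genes of green tissue were also lower after calcium, as were 64 of the 135 genes of the table. The table holds only genes that differed, so nothing is read from this shared direction. All 12 genes of the table that were listed as cotyledon and leaf markers were lower after calcium, by 2.01-fold to 3.83-fold. They encode light-harvesting antenna proteins, a photosystem I subunit and the small subunit of RuBisCO, and are read here only as genes of green tissue. They summed to 7147 RPKM after calcium and 15889 RPKM after water, 2.22-fold lower, and none was at 0 in either group. TI1 and Bo4g187850 lay within the range of these markers, and all 4 Kunitz genes were lower by more than any of the markers in the plain RPKM ratio. With 5 RPKM added to both values, an alternative chosen after seeing the data, this held for 3 of the 4, and KTI1, at 3.03-fold, fell within the markers, which then reached 3.56-fold. In the plain ratio, genes described below passed every marker too: Bo4g020910 (4.76-fold), BGLU18 (4.98-fold), VSP2 (4.55-fold) and CYP79B2 (3.88-fold). OPR1 and both legume lectin genes did not. Passing the markers is thus not particular to the Kunitz genes, and nothing is read from these counts. The part of green tissue in the inhibitor differences was not tested. In such bulk samples, fewer cells of a type and less RNA per cell cannot be told apart. The single root marker, RGF9 (Bo2g166400), was 3.36-fold lower, and both genes matched as seed and embryo markers were higher after calcium. These are the late embryogenesis gene M17 (Bo4g190800) and Bo9g120390, the lipid transfer protein gene left out above, which matched only through the words 2S albumin in its superfamily name. No marker that defines the hypocotyl itself was on the lists, so the lists do not check the labelled tissue.

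Few genes linked to inhibitor biology stood beside the 6 in the table. No protease or peptidase gene, the targets of these proteins, matched the search words, which says nothing of their level because the table holds only genes that differed. The knottin gene Bo4g020910, from a superfamily of small disulfide-knotted proteins that includes protease inhibitors and toxins, was at 44.7 RPKM after calcium and at 213 RPKM after water, 4.76-fold lower. The bifunctional inhibitor gene Bo9g120390, whose superfamily takes in lipid transfer proteins, seed albumins and some trypsin inhibitors, was on the other side, at 376 RPKM after calcium and 142 RPKM after water. Both genes of the wound and jasmonate list were lower. The vegetative storage protein gene VSP2 (Bo2g159220), a jasmonate-responsive gene, was at 15.6 RPKM after calcium and 70.8 RPKM after water, and OPR1 (Bo2g091100), a reductase of oxylipins, was at 28.1 RPKM after calcium and 76.8 RPKM after water. In the list for glucosinolates and myrosinases, the other chemical defence of the mustard family, CYP79B2 (Bo7g118840) and the beta glucosidase gene BGLU18 (Bo6g028090) were 3.88-fold and 4.98-fold lower. Both legume lectin genes were lower too, Bo1g128570 by 2.28-fold and Bo5g127240 by 2.19-fold. The list for antimicrobial peptides held 3 genes, and they went apart: the knottin gene Bo4g020910, given above, belongs to it too and was lower, while both defensin genes were higher after calcium. The homologue of plant defensin 1.3 (Bo6g086120) was at 130 RPKM after calcium and 15.1 RPKM after water, and that of defensin 1.2C (Bo6g086130) at 153 RPKM after calcium and 47.7 RPKM after water. The lists of this paragraph hold at most 3 genes each, and no direction of a pathway is read from them.

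Likeness to each inhibitor gene was measured as the distance in log2 ratio plus the distance in log2 mean RPKM over the 2 group values. By this measure TI1 was closest to the LHCB1.4 homologue Bo4g039810, at a distance of 0.12, with 289 RPKM after calcium and 597 RPKM after water. KTI1 was closest to Bo7g117510 and Bo4g187850 to Bo2g082290, both without annotation, at distances of 0.22 and 0.18. The nearest genes of the remaining Kunitz genes were farther off, at 0.88 for Bo6g116730 with MES18 (Bo2g028670), 0.87 for Bo00722s060 with the lipase gene Bo6g032890, and 1.00 for Bo00722s110 with Bo4g194410. In log2 ratio alone, the genes nearest to Bo00722s110 were Bo4g194410 at -4.22, Bo2g017650 at -6.05 and the CAP superfamily gene Bo1g007900 at -3.79. Those nearest to TI1 were Bo9g014930, Bo9g027490 and Bo4g039810, from 2.06-fold to 2.11-fold lower.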

How the data were processed

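RNA sequencing of hypocotyls gave 4 libraries, 2 per spray, with TruSeq libraries per the labels' protocols. The authors deposited 1 RPKM per gene and group, its log10, a fold change, a difference score, an adjusted p-value and a cluster number, per the file headers. CASAVA is named, without a version, in the submitters' processing notes. The sources used here do not give the aligner, genome build, annotation or test, or how libraries were combined. Both log10 columns deposited by the authors were checked against the RPKM values. The values headed control were read as water, the only other group in the labels.

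Members were matched by annotation words. Ratios are calcium over water of plain RPKM, with no pseudocount or filter in the values as reported. The limma fit set out in the design could not be made without values of single libraries, so no p-value was computed. All 6 members are named. Other genes named are up to 3 per word list, the 3 nearest in ratio to the highest and the lowest member, and the nearest gene to each member. Members, classes and lists were chosen with earlier results of these data known. Functions were tested on simulated data. Python 3.11.15, NumPy 2.4.6, pandas 2.3.3 and matplotlib 3.10.9 were used.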

Additional observations from a re-analysis of the deposited data

How the results depend on the processing

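No paired analysis was possible because the table holds no value per library, and for the same reason no library could be left out. All 30 values of single genes under the 5 alternatives (0.1, 1 or 5 RPKM added, the median log2 ratio of the table set to 0, quantile normalization) stayed lower with calcium. Adding RPKM to both values cannot change the direction, and taking 1.04 from a negative log2 ratio only lowers it. Only quantile normalization could have reversed a gene, so nothing is read from the direction under the other alternatives. Of the 30 values, 9 moved by more than 1.5 times, among them those of all 6 genes under the median setting. Setting the median of the 135 genes to 0 took 1.04 from each log2 ratio and gave a median of -3.46 for the 6 genes, against -2.42. Quantile normalization left TI1 1.85-fold lower. The table holds only genes that differed, so neither this nor the median setting normalizes libraries, and neither shows whether a gene passes 2-fold. Leaving out TI1 gave a log2 ratio of the sum of -2.31, against -1.51. The log2 ratio of the Kunitz sum was -3.10, and it was -2.84 without Bo00722s060 and -2.52 without both AT1G72290 matches, both chosen after seeing the data. Counting those matches once left 5 lower genes. No depth, and so no counting interval, is known.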
